A study of Mus musculus with 30 samples.

Results

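The genes described here encode the core of the spliceosome and the RNA-binding proteins that steer it: the snRNP proteins, the SF3a and SF3b subunits, the U2 auxiliary factor, the SR proteins, the hnRNP proteins and Snw1. They were taken by symbol from the genes listed in all 5 deposited expression tables: Srsf, Sf3a or Sf3b followed by a number, every symbol that starts with Hnrnp or Snrp, and Ptbp1, Snw1, U2af1 and U2af2, with a mean of at least 1 TPM over 30 libraries. Of 56 matching symbols among 24421 genes, 55 passed: 12 snRNP proteins, 9 SF3a and SF3b subunits, 2 U2 auxiliary factor subunits, 10 SR proteins, 21 hnRNP proteins with Ptbp1 counted among them, and Snw1. The member just inside the limit was Snrpn with a mean of 1.27 TPM, listed at 0 in 13 libraries, and the next lowest was Hnrnpul2 with 10.5 TPM. Srsf12, with 0.262 TPM and 6 libraries at 0, fell just outside.

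The study profiled mouse bone marrow multipotent progenitors, the early blood-forming cells known as MPP3, which lean towards myeloid cells, and MPP4, which lean towards lymphoid cells, and asked about the transcription factor Bcl11a in them. Cells were sorted by flow cytometry into populations labelled T1 and T2 from animals labelled WTiMOS or KOiMOS at 3 or 24 months of age. The 10 groups of 3 libraries each were T1 and T2 of KOiMOS MPP3 at 3 months, WTiMOS MPP3 at 3 months, WTiMOS MPP3 at 24 months, WTiMOS MPP4 at 3 months and WTiMOS MPP4 at 24 months. The labels do not say what T1, T2 or iMOS stand for, which alleles or cells a KOiMOS animal has changed, or whether the libraries of a group come from separate animals, so p-values measure only the spread between libraries, which may be technical. KOiMOS MPP3 at 24 months was not analysed here.

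Splicing removes introns from a pre-mRNA in a large particle built of small nuclear RNAs and proteins. Each of the U1, U2, U4 and U5 snRNPs carries a ring of Sm proteins (Snrpb or Snrpn, Snrpd1, Snrpd2, Snrpd3, Snrpe, Snrpf and Snrpg), and particle-specific proteins such as Snrpa and Snrpc in U1 and Snrpa1 and Snrpb2 in U2. U2af1 and U2af2 recognise the 3′ splice site, SF3a and SF3b hold U2 on the branch point, and Snw1 joins the particle when it becomes active. SR proteins mostly favour the use of nearby exons, while hnRNP proteins package nascent RNA and often favour skipping. SF3B1, U2AF1 and SRSF2 are among the genes most often mutated in human myelodysplastic syndromes.

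Expression was given as TPM, a transcript abundance in which each gene is scaled by its RNA length and each library sums to the same total, so levels of different genes can be set side by side but the depth of a library is unknown. Changes are differences of mean log2(TPM + 1) with their standard error from limma, and a gene is called when its p, adjusted by Benjamini-Hochberg over all tested genes, is under 0.05. Such a scale understates the change of low genes. In bulk samples fewer cells of a type and less RNA per cell cannot be told apart. Because TPM shares a fixed total among genes, the counts of called members are also given after rescaling the libraries by their median ratio.

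Libraries held 10519 to 12008 genes at 1 TPM or more, and libraries of a group correlated at 0.977 to 0.996 across genes. All 7 progenitor markers reached 1 TPM in every group. Bcl11a RNA itself was present in the libraries labelled KOiMOS (70.3 ± 2.48 TPM in T1 and 68.2 ± 3.41 in T2, SD, n = 3). In those labelled WTiMOS of the same age and cell type it stood at 45.2 ± 2.79 and 78.5 ± 6.06 TPM. All KOiMOS libraries were higher in T1 (68.75 to 73.18 against 43.49 to 48.45 TPM) and lower in T2 (64.31 to 70.57 against 73.77 to 85.3 TPM). Gene-level RNA was thus not lost in KOiMOS. The 2 labels lie in separate tables, so label and table cannot be told apart. The labels do not give the deleted part of the gene, so this level does not check the labels, and KOiMOS below means the libraries labelled so. The first principal component over all genes (68.5% of the variance) set the 2 tables of 3-month MPP3 apart from the other 3, so levels compared across tables carry that split. RNA from 4 Y-linked genes summed to 0 in T1 of 3-month MPP4 and of 24-month MPP3 and to at most 0.184 TPM in T1 of 24-month MPP4, against 53.97 to 169 TPM in T2 of those tables, so there T1 against T2 and the presence of Y-linked RNA cannot be told apart. Both populations of the 3-month MPP3 tables held it, but T2 held less than T1 with no overlap. In KOiMOS it summed to 109.9 to 113.7 TPM in T1 and 55.27 to 61.15 in T2, with 4 of 4 genes called lower. In WTiMOS it summed to 64.16 to 78.92 and 33.78 to 58.54 TPM, with 1 of 4 called lower.

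Promoters are shown for 4 members that stand at the ends of the results below, 2 snRNP genes and 2 hnRNP genes that moved in opposite directions in MPP4. The sequences are from RefSeq on build GRCm38.p6, 150 bases before to 30 after the annotated start, read 5′ to 3′ on the gene's strand. Capitals mark matches to CCGGAAG or CTTCCGG (the core of many ETS sites), CCAAT or ATTGG (the CCAAT box) and CACGTG (an E-box).
Snrpe, chr1:133610251-133610430, minus strand: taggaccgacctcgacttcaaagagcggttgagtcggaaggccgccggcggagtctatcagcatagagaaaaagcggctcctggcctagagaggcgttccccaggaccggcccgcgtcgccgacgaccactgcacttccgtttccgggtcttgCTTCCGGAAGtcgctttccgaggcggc
Snrpg, chr6:86371390-86371569, plus strand: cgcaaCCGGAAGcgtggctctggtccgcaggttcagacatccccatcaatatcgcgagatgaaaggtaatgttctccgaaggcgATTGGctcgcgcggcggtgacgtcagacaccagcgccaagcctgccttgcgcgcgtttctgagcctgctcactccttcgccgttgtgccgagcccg
Ptbp1, chr10:79854282-79854461, plus strand: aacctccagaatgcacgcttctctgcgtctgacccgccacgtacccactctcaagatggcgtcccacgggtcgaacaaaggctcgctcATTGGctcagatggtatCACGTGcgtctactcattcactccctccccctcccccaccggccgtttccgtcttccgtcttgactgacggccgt
Hnrnpk, chr13:58402088-58402267, minus strand: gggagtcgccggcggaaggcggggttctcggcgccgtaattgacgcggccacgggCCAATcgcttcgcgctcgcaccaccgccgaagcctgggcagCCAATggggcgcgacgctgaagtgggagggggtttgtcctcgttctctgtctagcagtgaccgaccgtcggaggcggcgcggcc

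In Snrpe, CTTCCGG and CCGGAAG overlap just after the start, and Snrpg has CCGGAAG 145 bases and ATTGG 66 bases before it. Ptbp1 has ATTGG 62 bases and CACGTG 45 bases before the start, and Hnrnpk has CCAAT at 95 and 54 bases before it. Over the whole 300-base windows, which were found for 47 of the 55 members, CCGGAAG on either strand stood in 16 members (34%) against 9.93% of 27025 genes. It was in 6 of 7 SF3a and SF3b genes, 4 of 10 snRNP genes, 4 of 10 SR genes and 2 of 19 hnRNP genes. CCAAT on either strand was in 25 members (53.2%, all genes 41.1%), among them 14 of 19 hnRNP genes, and CACGTG in 7 members (14.9%, all genes 8.09%), 6 of which were hnRNP genes. GGGCGG on either strand (the GC box) was in 34 members (72.3%, all genes 38.2%), and TATAAA on either strand in 7 (14.9%, all genes 15.7%). These are matches of letters in a window, and no binding was measured.

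Summed over each class, the snRNP and the hnRNP genes moved in opposite directions between T1 and T2 of MPP4, and both directions were the other way round at 24 months. In 3-month MPP4 the snRNP genes summed to 7146 ± 151 TPM in T1 and 10950 ± 141 in T2 (SD, n = 3), while the hnRNP genes summed to 5089 ± 74.3 and 2242 ± 167 TPM and the SR genes to 4229 ± 55.7 and 2437 ± 45 TPM. In 24-month MPP4 the snRNP sum was 8670 ± 159 TPM in T1 and 6719 ± 293 in T2, the hnRNP sum 4382 ± 60.4 and 5473 ± 82.8, and the SR sum 3258 ± 18.6 and 4210 ± 152. The SF3a and SF3b sum stayed within 1986 to 2220 TPM in these 4 groups. All members together summed to 19030 and 18220 TPM in T1 and T2 at 3 months and to 18760 and 18920 at 24 months, so the classes changed places within a total that moved little.

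**Figure D1:**
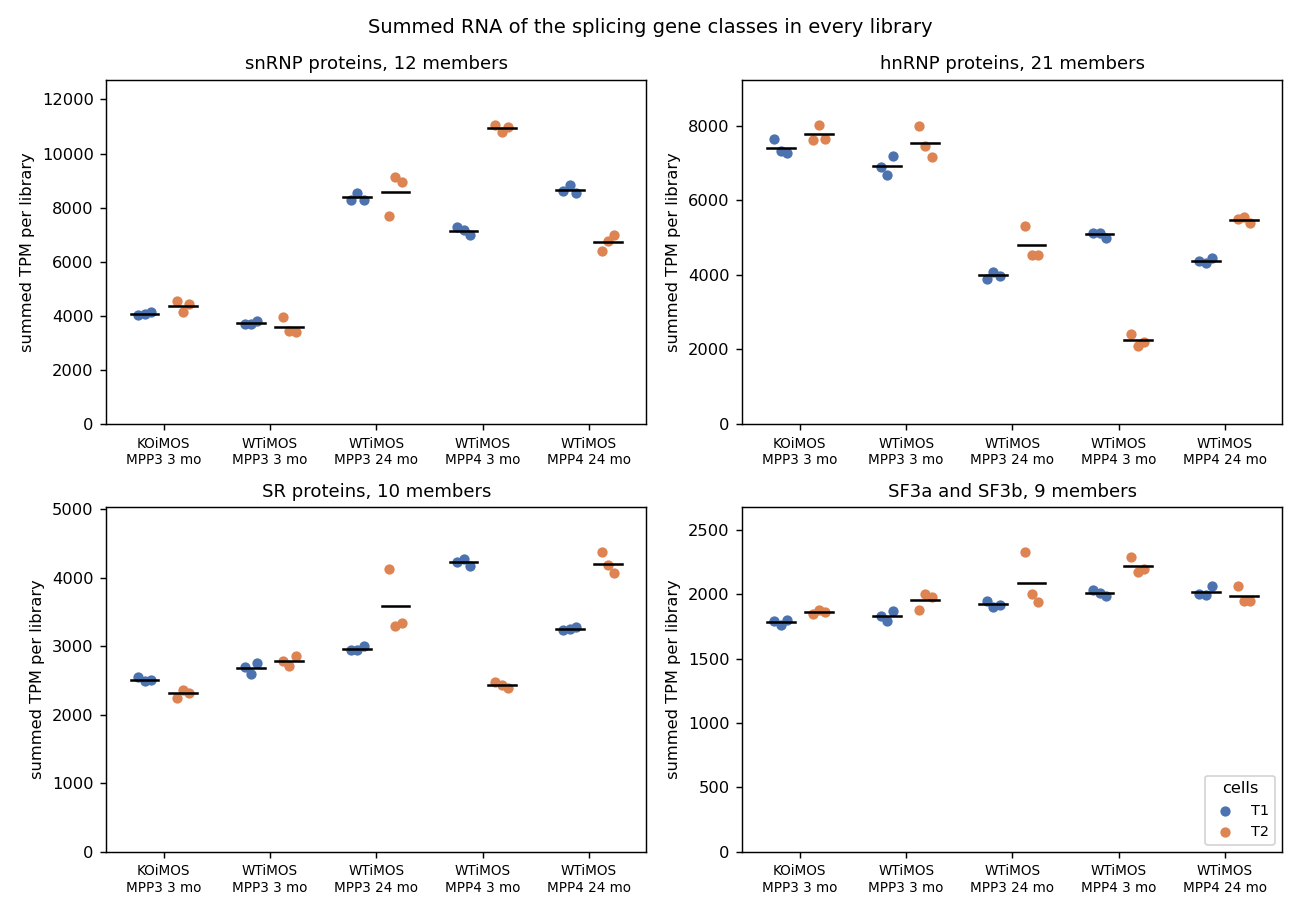
Summed TPM of the 4 larger member classes in every library (points, T1 blue and T2 orange, line at the mean of 3) by table. The snRNP sum rises and the hnRNP and SR sums fall from T1 to T2 in 3-month MPP4, and all 3 go the other way in 24-month MPP4.

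In WTiMOS MPP4 at 3 months, 10 of 54 tested members were called higher in T2 and 41 lower, against 8.71% higher and 72.6% lower of 11288 genes. The median change was -0.69 over members and -0.74 over all genes, so the median member moved about as far as the median gene. After rescaling, 20 members were higher and 17 lower (all genes 25.8% and 26.7%), with a member median of 0.10. By class, 8 of 11 tested snRNP genes were higher and 3 lower (after rescaling 9 and 0), 1 of 21 hnRNP genes was higher and 19 lower (3 and 10), 10 of 10 SR genes were lower (5 higher and 3 lower), and 1 of 9 SF3a and SF3b genes was higher and 7 lower (2 and 3).

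**Figure D2:**
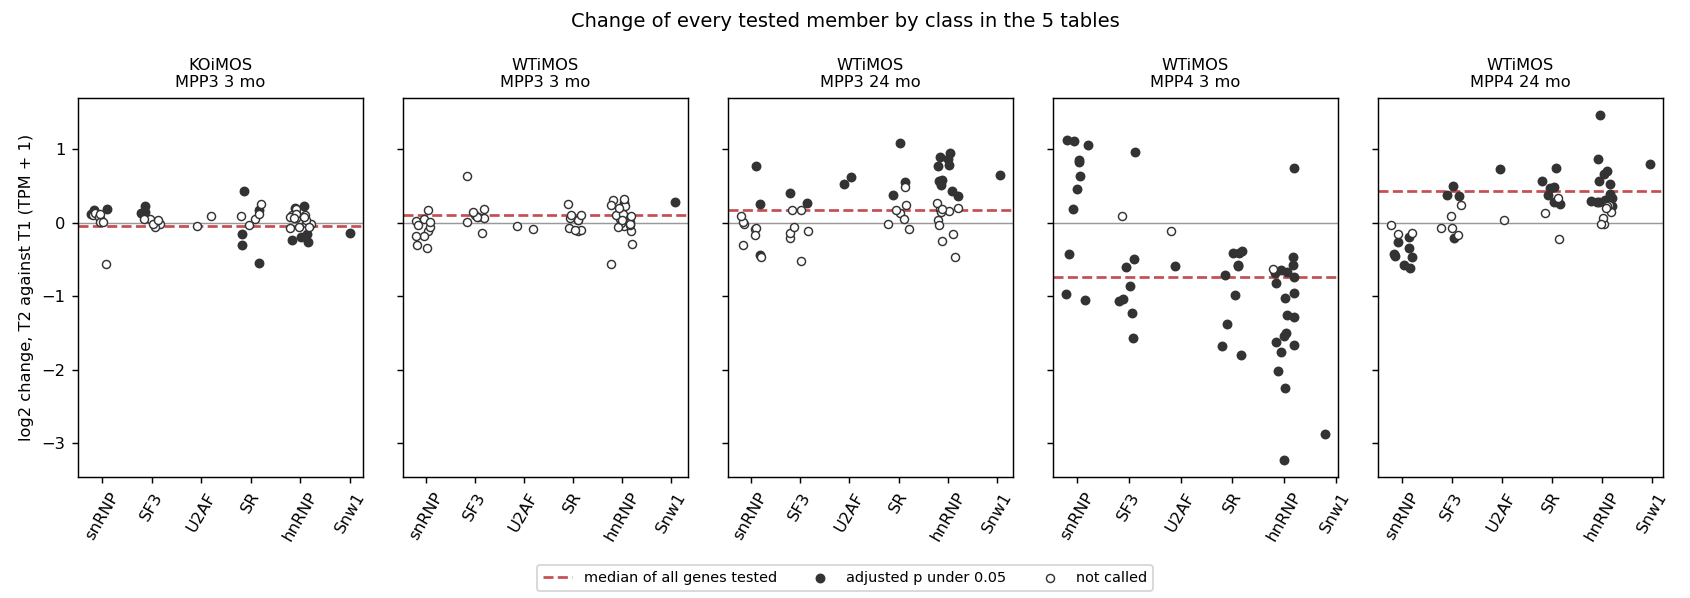
Log2 change of T2 against T1 for every tested member by class in the 5 tables, filled where called, with the median of all tested genes as a red dashed line. In 3-month MPP4 most snRNP genes stand above the line at -0.74 and most hnRNP genes near or below it, and in 24-month MPP4 all snRNP genes stand below the line at 0.43.

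The largest rises were among the snRNP genes. Snrpg, a ring subunit, stood at 1158, 1131 and 1076 TPM in T1 and 2560, 2333 and 2426 in T2, a log2 change of 1.12 (SE 0.05, adjusted p = 2.25e-10). Snrpe, its neighbour in the ring, stood at 1184, 1123 and 1025 TPM in T1 and 2429, 2242 and 2273 in T2 (log2 1.06, adjusted p = 1.08e-09). All T2 libraries lay about 2-fold above all T1 libraries for both genes. Snrpb2, a U2 protein, went from 140.8, 141 and 142.4 TPM to 298.8, 328.2 and 307.7 (log2 1.13, adjusted p = 2.68e-09), again with no overlap. Snrpf (666.7 ± 37.3 to 1207 ± 62.4 TPM, log2 0.85), Snrpd2 (869.4 ± 23.2 to 1545 ± 130 TPM, log2 0.82), Snrpd1 (587.6 ± 34.8 to 910.3 ± 48.7 TPM, log2 0.63) and the U1 protein Snrpc (log2 0.46) also rose, and Snrpd3 by 0.18 (adjusted p = 0.0109). The 3 snRNP genes that fell were Snrpb, the ring's largest subunit (997.8 ± 67.5 to 510.2 ± 28.8 TPM, log2 -0.97), Snrpa (-1.05) and Snrpa1 (-0.43, but 0.399 and called higher after rescaling), so the ring did not move as 1 unit. After rescaling 0 of 11 tested snRNP genes were called lower, Snrpb and Snrpa included, and the lowest change was -0.227.

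Among the SF3b genes, Sf3b6, which contacts the branch point adenosine, rose with the Sm ring, from 721, 692.5 and 669.9 TPM in T1 to 1462, 1297 and 1327 in T2 (log2 0.97, adjusted p = 2.52e-09). Sf3b1, the large scaffold of SF3b, fell from 215.3, 216.5 and 205.5 TPM to 111.2, 98.72 and 98.15 (log2 -1.04, SE 0.08), and Sf3a3 from 215.2 ± 13.9 to 71.79 ± 6.31 TPM (-1.57). Their libraries did not overlap, so on the TPM as deposited subunits of the same particle moved apart, beside a median of -0.74 over all genes. After rescaling, 2 of 9 SF3a and SF3b genes were called higher and 3 lower, with changes from -0.75 to 1.797. Of the 3′ splice site pair, U2af2 was lower (16.44, 15.11 and 14.68 TPM in T1, 12.12, 9.881 and 8.185 in T2, log2 -0.58), and U2af1 was not called (370.5 ± 18.3 and 344.1 ± 40.5 TPM, log2 -0.11, adjusted p = 0.206). On rescaled libraries U2af2 changed by 0.183 and was not called, and U2af1 changed by 0.715 and was called higher. The direction of both thus depends on the scale.

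The largest falls were those of Ptbp1 and Snw1. Ptbp1, a repressor of exons with pyrimidine-rich tracts, stood at 31.65, 32.2 and 33.04 TPM in T1 and 2.85, 2.236 and 2.621 in T2, 9.35-fold lower on this scale (log2 -3.23, SE 0.136, adjusted p = 1.58e-10). Snw1 stood at 174.3, 176.7 and 164.9 TPM in T1 and 23.56, 23.78 and 20.32 in T2, 7.36-fold lower (log2 -2.88, adjusted p = 3.35e-11). For both, every T2 library lay far below every T1 library, and both falls were called after rescaling (-2.52 and -2.07). Hnrnpk, a binder of C-rich RNA, went from 580.1, 644.8 and 734.8 TPM to 142, 129.6 and 135.6 (log2 -2.25, adjusted p = 6.29e-11; rescaled -1.43). Hnrnpa2b1 went from 814.7, 824.4 and 858 TPM to 205.3, 199.8 and 208.2 (log2 -2.02, adjusted p = 9.7e-12; rescaled -1.19). Hnrnpm (162.9 ± 11.9 to 47.68 ± 5.79 TPM, log2 -1.76) and Hnrnpr (-1.67) completed the 6 largest falls apart from SR genes. Hnrnpa1, the most studied antagonist of SR proteins, was not called (468.7, 457.5 and 282.9 TPM in T1, 295.3, 218.3 and 251.7 in T2, log2 -0.63, adjusted p = 0.0587), and 1 T1 library lay among the T2 values.

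Hnrnpa0 was the 1 hnRNP gene called higher, at 50.99, 40.99 and 32.49 TPM in T1 and 80.46, 60.04 and 67.51 in T2 (log2 0.74, adjusted p = 0.000707). Its T2 libraries were all higher than its T1 libraries. In the SR family the falls had a wide range. Srsf9, a small SR protein, went from 335.7, 312.8 and 320.9 TPM to 91, 88.99 and 96.74 (log2 -1.80, adjusted p = 9.75e-11; rescaled -0.97). Srsf5 went from 906.6 ± 11.5 to 282.6 ± 27.2 TPM (-1.68) and Srsf4 by -1.38 on the log2 scale. Srsf7 (-0.59), Srsf1 (-0.41), Srsf2 (-0.41) and Srsf3 (-0.39) fell by less than the median gene, and on the rescaled libraries their changes were positive (0.238, 0.411, 0.417 and 0.441), so their direction depends on the scale.

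**Figure D3:**
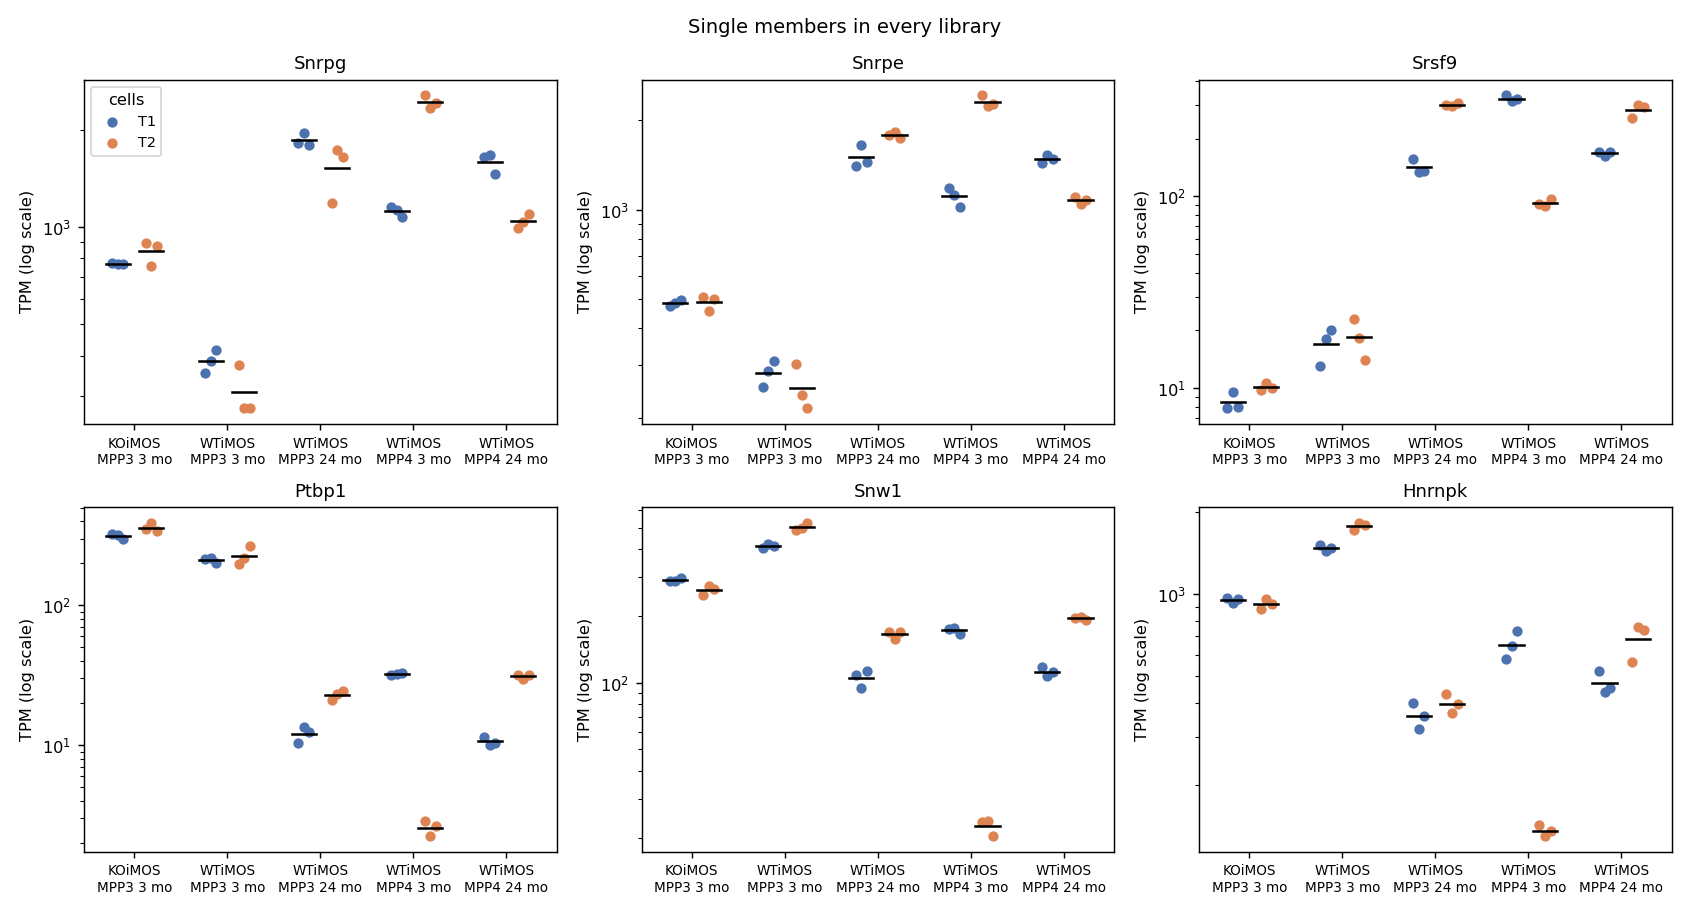
TPM on a log axis of Snrpg, Snrpe, Srsf9, Ptbp1, Snw1 and Hnrnpk in every library (T1 blue, T2 orange, line at the mean of 3) by table. Snrpg and Snrpe are high in T2 of 3-month MPP4 where the other 4 are low, and Ptbp1 runs from 2.236 to 387 TPM over the tables.

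RNA length moved with these results. Over all tested genes of 3-month MPP4, the 1096 genes with an RNA under 1 kb had a median change of 0.273 and those of 1 to 2 kb -0.801, with -0.933, -0.805, -0.732 and -0.685 in the longer classes. The 5 tested members under 1 kb had a median of 0.631, and across 54 members the change correlated with log length at r = -0.392 (rho -0.3; all genes -0.25), as a description over genes measured in the same libraries. Snrpe (503 bases) and Snrpc (758) are short, but Snrpb (1161) fell and Snrpb2 (2061) rose. With the trend on length and GC content removed, 8 of 11 snRNP genes were higher and 2 lower, and 4 of 21 hnRNP genes higher and 12 lower. On that scale Snrpg changed by 1.24, Snrpe by 0.71, Snrpb2 by 1.63, Sf3b6 by 1.10, Srsf9 by -1.37, Hnrnpk by -1.47, Hnrnpa2b1 by -1.59, Snw1 by -2.01 and Ptbp1 by -2.08, so these 9 kept their direction.

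**Figure D4:**
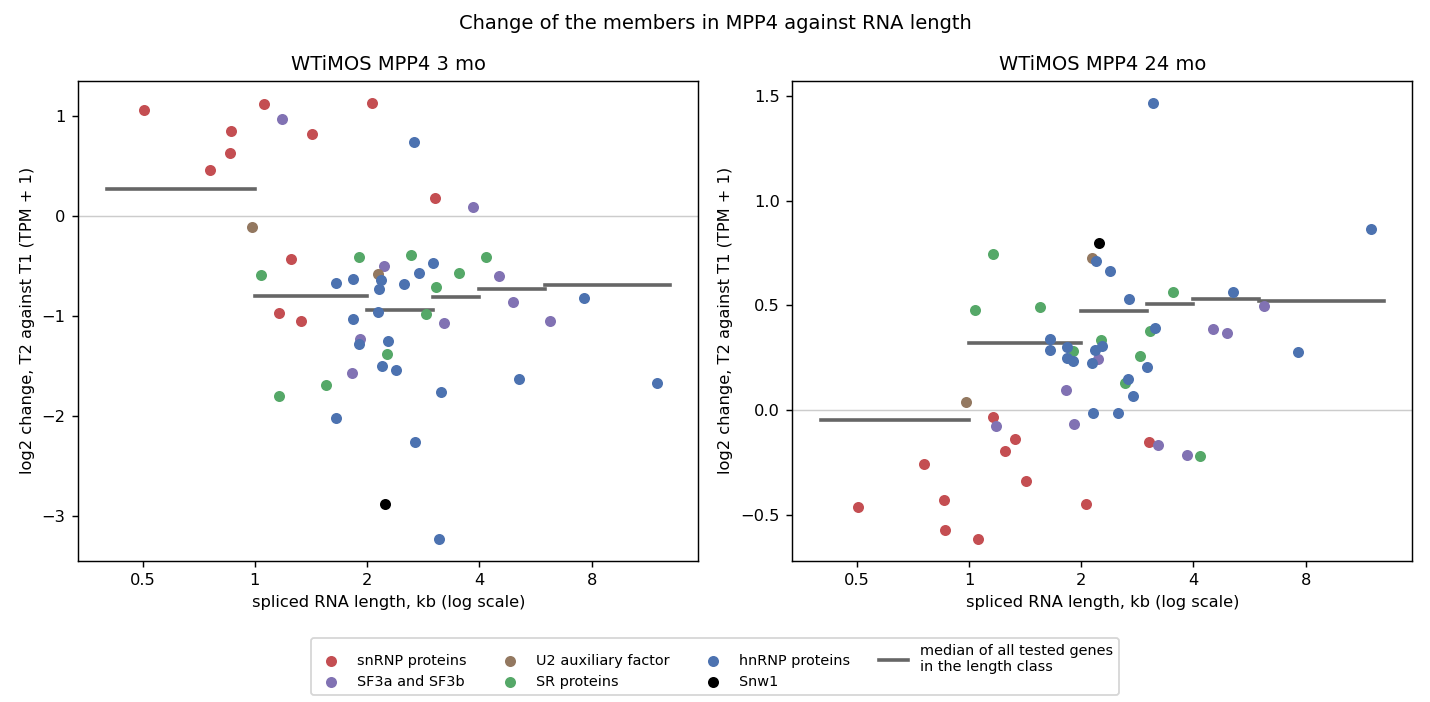
Log2 change of T2 against T1 of each tested member against spliced RNA length in kb (log axis) in 3- and 24-month MPP4, coloured by class, with grey lines at the median of all tested genes in each length class. Short genes of all kinds stand higher at 3 months (0.273) and lower at 24 months (-0.047) than longer ones, and snRNP genes lie mostly above the line of their length class at 3 months and all below it at 24 months.

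Other lists moved in the same libraries, in which 72.6% of all genes were called lower with a median change of -0.74. All 8 genes of the handling response (immediate early genes) were lower in T2, with summed levels of 2792 to 3264 TPM in T1 and 958.2 to 1070 in T2 (median change -1.28). Of 10 proliferation genes 9 were lower (2361 to 2402 against 1680 to 1705 TPM), and all 7 progenitor markers were lower (980.7 to 1026 against 506.2 to 593.4 TPM). Of 7 Myc and nucleolar genes 1 was higher and 6 lower, though their sum was 2943 to 3065 TPM in T1 and 2923 to 2981 in T2. Of 6 mature neutrophil markers 1 was higher and 5 lower, with a median change of -1.12 (463 to 573.5 against 315.6 to 360.9 TPM). All 3 tested erythroid markers were higher (4.722 to 18.05 against 172.3 to 303.8 TPM), with Epor at 0 in T2. Their part in the changes of the splicing genes was not tested.

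In WTiMOS MPP4 at 24 months, 26 of 54 members were called higher in T2 and 9 lower, against 58.2% and 7% of 11366 genes. The member median was 0.25 and that of all genes 0.43. After rescaling, 5 members were higher and 20 lower (all genes 14.7% and 19.3%), with a median of -0.19. None of 11 snRNP genes was higher and 8 were lower (after rescaling 0 and 10), 14 of 21 hnRNP genes were higher and 0 lower (3 and 3), 7 of 10 SR genes were higher and 0 lower (1 and 2), and 3 of 9 SF3a and SF3b genes were higher and 1 lower (0 and 4). The lower snRNP genes are the direction that held on both scales, while the higher hnRNP and SR counts did not.

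Snrpg stood at 1653, 1676 and 1458 TPM in T1 and 994.6, 1034 and 1095 in T2 (log2 -0.61, SE 0.07, adjusted p = 0.000103). Snrpe stood at 1438, 1534 and 1483 TPM in T1 and 1103, 1046 and 1080 in T2 (log2 -0.46, adjusted p = 0.00017). The T1 libraries were the higher ones for both, with no overlap. Snrpf (898.5, 930.5 and 873 TPM, then 534.8, 621 and 669.8, log2 -0.57), Snrpb2 (-0.45), Snrpd1 (-0.43), Snrpd2 (-0.34), Snrpc (-0.26) and Snrpa1 (-0.19) were also called lower, and Snrpd3, Snrpa and Snrpb were not. The Sm gene Snrpb overlapped between T1 (919.2, 781.2 and 804 TPM) and T2 (636.5, 885.3 and 959).

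Ptbp1 stood at 11.5, 10.04 and 10.31 TPM in T1 and 31.87, 29.77 and 31.52 in T2 of 24-month MPP4, 2.76-fold higher (log2 1.47, SE 0.109, adjusted p = 5.89e-06; rescaled 1.04). Snw1 stood at 117, 107.1 and 111.5 TPM in T1 and 196.1, 196.8 and 192.1 in T2 (log2 0.80, adjusted p = 2.29e-05; rescaled 0.35). T2 was the high group for both, the opposite of 3 months. Hnrnpr went from 39.67, 38.21 and 39.81 TPM to 78.7, 69.01 and 69.57 (log2 0.87, adjusted p = 5.24e-05), and Srsf9 from 170.4, 161.7 and 170.8 TPM to 257.4, 298.1 and 290.3 (log2 0.74, adjusted p = 5.24e-05). U2af2 went from 7.073, 8.72 and 7.988 TPM to 14.9, 12.87 and 13.5 (log2 0.73, adjusted p = 0.000906). Hnrnph3 (0.71), Hnrnph2 (0.67), Hnrnpk (0.53), Sf3b1 (0.49), Srsf7 (0.48), Hnrnpa2b1 (0.34), Hnrnpa1 (0.30) and Srsf2 (0.28) were called higher by less. Of these, Hnrnpa2b1, Hnrnpa1 and Srsf2 turned negative on rescaling (-0.107, -0.143 and -0.165). After rescaling 0 SF3a and SF3b genes (largest change 0.051), 0 U2 auxiliary factor genes (0.319) and 1 of 10 SR genes were called higher. Sf3b1 and U2af2 thus lost their calls. Srsf1 (-0.22, adjusted p = 0.0514), Srsf3 (0.13) and U2af1 (0.04) were not called.

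Length moved with the 24-month changes as well, in the other direction: the median gene under 1 kb changed by -0.047 (5 members: -0.431), against 0.319 at 1 to 2 kb and 0.519 above 6 kb, and the change of 54 members correlated with log length at r = 0.471 (all genes 0.248). With that trend removed, 0 snRNP genes were higher and 9 lower, 4 hnRNP genes higher and 3 lower, and 3 SR genes higher and 2 lower. Of 10 proliferation genes 5 were lower in T2 (2661 to 2844 against 2105 to 2243 TPM), and of 7 progenitor markers 5 were higher (631.2 to 671 against 1145 to 1279 TPM), beside 58.2% of all genes higher and 7% lower. Their part in the result was not tested.

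The change from T1 to T2 differed between 24- and 3-month MPP4 for most members when the difference itself was tested: 41 of 54 were higher and 10 lower at 24 months, against 76.4% and 7.4% of 11789 genes, with a median difference of 0.97 over members (-0.31 after rescaling) and 1.16 over all genes. After rescaling, 13 were higher and 21 lower (all genes 25.5% and 23.1%). By class, 20 of 21 hnRNP genes were higher (9 higher and 5 lower after rescaling), 9 of 10 SR genes (2 and 3), and 3 snRNP genes were higher and 8 lower (0 and 9). The difference was 4.69 for Ptbp1 (adjusted p = 3.65e-12), 3.68 for Snw1 (2.25e-12), 2.54 for Srsf9 (1.54e-11) and 2.36 for Hnrnpa2b1 (3.29e-12), and on rescaled libraries 3.56, 2.41, 1.25 and 1.07. For Snrpg it was -1.73 and for Snrpe -1.52, on rescaled libraries -3.03 and -2.82. In levels, Ptbp1 averaged 32.3 TPM in T1 and 2.57 in T2 at 3 months, and at 10.6 and 31.1 at 24 months.

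In WTiMOS MPP3 at 24 months, 20 of 54 members were called higher in T2 and 1 lower, against 30% and 12% of 11317 genes (after rescaling 13 and 7, all genes 18.7% and 18.9%). The median change was 0.18 over members and 0.18 over all genes. The calls were 10 of 21 hnRNP genes higher and 0 lower (after rescaling 8 and 3), 3 of 10 SR genes (2 and 0), 2 of 9 SF3a and SF3b genes (0 and 2), both U2 auxiliary factor genes (1 and 0), 2 of 11 snRNP genes with 1 lower (1 and 2), and Snw1. Here the snRNP sum did not separate T1 (8382 ± 145 TPM) from T2 (8593 ± 779 TPM), while the hnRNP sum was 3989 ± 95.6 and 4798 ± 451 TPM.

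Srsf9 stood at 156.3, 133.2 and 135.7 TPM in T1 and 298.8, 296.6 and 305.4 in T2 (log2 1.08, SE 0.10, adjusted p = 8.01e-06). Snrpd3, an Sm ring subunit, stood at 572, 561.1 and 586 TPM in T1 and 901, 1045 and 1014 in T2 (log2 0.78, adjusted p = 5.75e-05). Both had T2 as the high group with no overlap. Hnrnpr went from 30.63, 30.05 and 33.85 TPM to 69.35, 59.43 and 56.75 (log2 0.95, adjusted p = 0.000109), Ptbp1 from 10.28, 13.57 and 12.4 TPM to 20.91, 23.18 and 24.45 (log2 0.87, adjusted p = 0.000588), and Snw1 from 105.2 ± 9.91 to 165.3 ± 7.25 TPM (log2 0.65, adjusted p = 0.000539). Hnrnpa0 (43.21, 67.95 and 52.92 TPM, then 121.1, 107.5 and 79.34, log2 0.90, adjusted p = 0.0031) and Hnrnpa1 (286.1, 451.3 and 335.8 TPM, then 696.6, 607.9 and 513.2, log2 0.77) rose with a wider spread. Snrpb2 was the 1 member called lower (201.5, 232.5 and 228.8 TPM, then 176.2, 158.5 and 155.1, log2 -0.43, adjusted p = 0.00528).

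Of the splicing factors known from human disease, U2af1 and Srsf2 were called in 24-month MPP3 and Sf3b1 was not. U2af1 went from 247.2, 214 and 234.7 TPM to 388.2, 298.6 and 322.7 (log2 0.53) and Srsf2 from 255.9, 308.3 and 262.6 TPM to 488.8, 372.2 and 360.4 (log2 0.55), neither with overlap. U2af2 (log2 0.62, adjusted p = 0.0248) had overlapping libraries, at 10.49, 14.47 and 11.24 TPM in T1 and 14.02, 24.87 and 19.33 in T2. Its call was lost without T1 replicate 1 (adjusted p = 0.0944), T1 replicate 3 (0.0798) or T2 replicate 2 (0.113). Srsf3 (0.37, adjusted p = 0.0243) was lost without T1 replicate 1 (0.0646), 2 (0.0715) or 3 (0.0741). Sf3b1 overlapped (168.3 ± 3.29 and 161.8 ± 18 TPM). Summed erythroid markers stood at 43.3 to 61.49 TPM in T1 and 382.3 to 979.2 in T2 (5 of 6 called higher), and mast and basophil markers at 312.4 to 331.4 and 391.4 to 417.3 TPM (5 of 6 higher and 1 lower, median change 2.67). Mature neutrophil markers summed to 2226 to 2592 TPM in T1 and 349.7 to 446.6 in T2, though of 5 tested 2 were higher and 2 lower with a median change of 0.35, and 3 of 5 tested B cell markers were lower. Of all genes 30% were called higher there and 12% lower, and the part of these markers in the changes was not tested.

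In WTiMOS MPP3 at 3 months, 2 of 54 members were called higher in T2 and 0 lower, against 8.39% and 5.96% of 11723 genes. Hnrnpk stood at 1518, 1443 and 1480 TPM in T1 and 1716, 1821 and 1795 in T2 (log2 0.26, adjusted p = 0.0027). Snw1 stood at 402.5, 422.7 and 413.4 TPM in T1 and 485, 495.5 and 523.6 in T2 (log2 0.28, adjusted p = 0.0106). T2 was higher in every library for both, but neither passed after rescaling (0.16 and 0.18), where Snrpg (-0.44) and Snrpd1 (-0.40) were instead called lower (all genes 4.7% higher and 7.66% lower). Without T1 replicate 1 the count was 1, Snw1 being lost (adjusted p = 0.0574), and without T2 replicate 1 it was 11, 7 higher and 4 lower. Hnrnpa1 varied widely within both groups, at 554.5, 620.5 and 1067 TPM in T1 and 1422, 638.8 and 651.8 in T2. All 6 B cell markers were lower in T2 (559.3 to 711.9 against 161 to 192.8 TPM), and 6 of 8 handling response genes were lower. Of 5 tested erythroid markers 4 were higher (10.7 to 30.19 against 63.1 to 215 TPM). The part of these lists was not tested.

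The change from T1 to T2 in WTiMOS MPP3 was larger at 24 than at 3 months for 14 of 54 members and smaller for 0, against 9.8% and 5.36% of 12384 genes (after rescaling 9 and 0, all genes 8.79% and 6.64%). The 14 were 7 hnRNP genes, 2 SR genes, both U2 auxiliary factor genes, 1 SF3 gene, 1 snRNP gene and Snw1. The difference was 0.78 for Ptbp1 (adjusted p = 0.00841), 0.77 for Snrpd3 (0.000707), 0.74 for Hnrnpr (0.00417) and 0.51 for Hnrnpm (0.00551). The count was 7 to 9 without 24-month T1 replicate 1 (8) or 3 (7), or 3-month T1 replicate 1 (8) or 3 (8) or T2 replicate 2 (9).

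Between MPP4 and MPP3 at 3 months, the change from T1 to T2 was higher in MPP4 for 9 of 54 members and lower for 38, against 7.28% and 57.6% of 12358 genes (after rescaling 20 and 12, all genes 20.3% and 16%). Of 11 snRNP genes 7 were higher and 3 lower (after rescaling 9 and 0), of 21 hnRNP genes 1 and 18 (3 and 8), and of 10 SR genes 0 and 8 (4 and 2). The difference was -3.31 for Ptbp1 (adjusted p = 1.29e-10), -3.16 for Snw1 (4.61e-12), -2.52 for Hnrnpk (2.76e-11) and -1.97 for Hnrnpa2b1 (1.02e-10). At 24 months 3 members were higher and 6 lower in MPP4, against 16.2% and 4.4% of 11897 genes, and after rescaling 0 and 15 (all genes 7.34% and 9.5%). They included Snrpd3 (-0.93, adjusted p = 0.000121), Snrpe (-0.71, 0.000288), Sf3b5 (-0.49, 0.00265) and Sf3b1 (0.56, 0.00642). Sf3b1 was not called after rescaling, and without 24-month MPP3 T2 replicate 1 the count was 18. These comparisons and those of age use the same libraries in different pairs, and they do not bear on each other independently.

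In KOiMOS MPP3 at 3 months, 11 of 55 members were called higher in T2 and 8 lower, against 15.9% and 20.4% of 12100 genes (after rescaling 19 and 5, all genes 19.8% and 17.7%). Most changes were small: apart from Snrpn they ran from -0.54 to 0.43 on the log2 scale. Srsf5, an SR protein, stood at 551.3, 546.6 and 541 TPM in T1 and 364.7, 387.2 and 371.5 in T2 (log2 -0.54, SE 0.04, adjusted p = 5.47e-07). Srsf4 moved the other way, from 78.57, 74.09 and 74.87 TPM to 99.56, 116.4 and 93.89 (log2 0.43, adjusted p = 0.000586). Neither gene's libraries overlapped, and Srsf2 (459.9 ± 25.3 to 373.8 ± 27.7 TPM, log2 -0.30, adjusted p = 0.00158) and Srsf6 (-0.15) fell with Srsf5, while Srsf10 (0.18) rose. SR genes were thus called 2 higher and 3 lower (after rescaling 4 and 3).

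Of the other classes in KOiMOS MPP3, 3 SF3 genes and 3 snRNP genes were higher and 0 lower, and 3 hnRNP genes were higher and 4 lower (after rescaling 3 and 0, 5 and 0, and 7 and 2). Hnrnpa3 went from 501.9, 481.5 and 466.5 TPM to 560.8, 575.5 and 565.7 (log2 0.23, adjusted p = 0.000824), Sf3b5 from 215, 215.6 and 225.3 TPM to 257.3, 241.2 and 272.8 (0.23, adjusted p = 0.00304), and Ptbp1 from 312.2 ± 13.8 to 359.5 ± 24.8 TPM (0.20, adjusted p = 0.0108). The snRNP genes that rose were Snrpa1 (0.19), Snrpc (0.18) and Snrpb (0.12). Hnrnpab (-0.26), Hnrnpr (-0.23), Hnrnpa0 (-0.20), Hnrnph2 (-0.15) and Snw1 (289.5 ± 5.07 to 261.9 ± 12.7 TPM, log2 -0.14, adjusted p = 0.0232) fell. Without T1 replicate 1 or 2 the count of calls was 12, and without T2 replicate 1 it was 11; calls of Hnrnpa0, Hnrnph2, Snrpc, Hnrnpa2b1, Hnrnpab and Snw1 were each lost in more than 1 such omission. In the same libraries 9 of 10 proliferation genes were higher in T2 (1516 to 1543 against 2008 to 2091 TPM), as were 5 of 6 erythroid (73.59 to 75.6 against 466 to 719.2 TPM) and 4 of 6 mast cell markers (176 to 265.5 against 3492 to 3677 TPM). All 4 Y-linked genes were lower in T2 (109.9 to 113.7 against 55.27 to 61.15 TPM). Of 5 tested B cell markers 4 were lower (93.06 to 99.39 against 59.9 to 66.61 TPM). Of 8 handling response genes 1 was higher and 5 lower (2620 to 2674 against 1764 to 1883 TPM). The part of these lists was not tested.

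Tested directly, the change from T1 to T2 differed between KOiMOS and WTiMOS MPP3 for 9 of 55 members, 4 higher and 5 lower in KOiMOS, against 7.84% and 13% of 12609 genes (after rescaling 13 and 2, all genes 11.6% and 7.27%). Srsf5 differed by -0.61 (adjusted p = 3.33e-05), as it fell in KOiMOS and stood at 599.3, 575.8 and 607.9 TPM in T1 and 662.2, 588.3 and 615 in T2 of WTiMOS. Snw1 differed by -0.42 (adjusted p = 0.000759), having fallen in KOiMOS and risen in WTiMOS. Hnrnpk (-0.32, adjusted p = 0.00175) and Srsf6 (-0.41, adjusted p = 0.00841) were not called after rescaling. Without WTiMOS T2 replicate 1 the count was 15.

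Levels in KOiMOS and WTiMOS MPP3 at 3 months come from separate tables, so genotype and table cannot be told apart. In T1, 21 of 55 members were higher in KOiMOS and 25 lower, against 38% and 28.3% of 12068 genes (after rescaling 19 and 28, all genes 34.3% and 31.6%). In T2, 20 of 54 were higher and 22 lower, against 25.9% and 28.9% of 11955 genes (after rescaling 22 and 19, all genes 29.4% and 25.7%). The median difference was -0.05 over members and 0.13 over all genes in T1, and 0.03 and -0.02 in T2. SR genes were 2 higher and 7 lower in T1 and 3 and 7 in T2 (after rescaling 2 and 7, 3 and 6), hnRNP genes 11 and 7 and then 9 and 9 (10 and 9 in both), and snRNP genes 5 and 5 and then 4 and 1 (5 and 6, 5 and 1). Other lists differed between the same libraries. In T1, 5 of 6 mast and basophil markers were higher in KOiMOS (176 to 265.5 against 18.18 to 29.16 TPM), all 6 B cell markers lower (93.06 to 99.39 against 559.3 to 711.9 TPM), all 8 handling response genes lower (2620 to 2674 against 9855 to 10460 TPM), 8 of 10 proliferation genes lower (1516 to 1543 against 2363 to 2417 TPM) and 4 of 4 Y-linked genes higher. In T2, 5 of 6 mast and basophil markers were higher (3492 to 3677 against 35.88 to 257.5 TPM), 5 of 5 tested B cell markers lower and 7 of 8 handling response genes lower (1764 to 1883 against 6944 to 7465 TPM). Their part in the differences of the splicing genes was not tested.

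**Figure D5:**
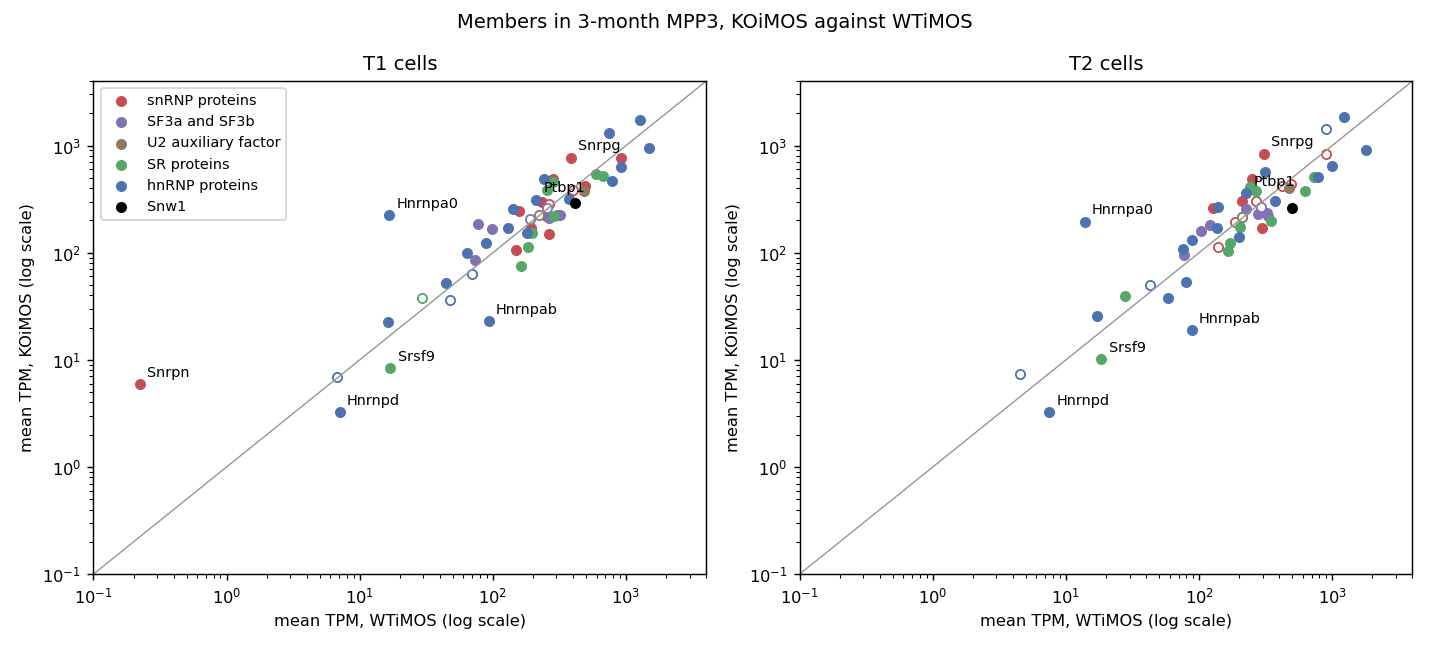
Mean TPM of each member in KOiMOS against WTiMOS MPP3 at 3 months (log axes), T1 left and T2 right, filled where called, with the line of equal levels. Hnrnpa0 lies far above the line (223.9 against 16.7 TPM in T1, 195 against 13.8 in T2) and Hnrnpab below it (22.9 against 93.3 TPM, 19.0 against 87.9).

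Hnrnpa0, a single-exon hnRNP gene, stood at 230.2, 233.7 and 207.8 TPM in T1 of KOiMOS and 16.37, 17.37 and 16.31 in WTiMOS (log2 3.67, 12.7-fold on the TPM + 1 scale, adjusted p = 3.91e-09). In T2 it stood at 205.8, 199.8 and 179.4 TPM and 17.54, 14.05 and 9.824 (log2 3.76, adjusted p = 9.05e-07). Every KOiMOS library lay far above every WTiMOS library. Hnrnpab went the other way, at 21.69, 23.59 and 23.45 TPM in T1 of KOiMOS and 92.49, 83.6 and 103.7 in WTiMOS (log2 -1.98, adjusted p = 2.88e-07), and by -2.12 in T2. Hnrnpd (-0.93 in T1 and -1.002 in T2), Hnrnpk (951.4 against 1480 TPM and 917.1 against 1777 TPM, -0.64 and -0.95) and Hnrnpm (-0.74 and -0.63) were lower in both populations, and Hnrnpa3 (1.01 and 0.93), Hnrnph1 (0.83 and 0.94) and Ptbp1 (0.57 and 0.68) higher. The call of Hnrnpa3 in T2 was lost without KOiMOS T2 replicate 1 (adjusted p = 0.078), 2 (0.0561) or 3 (0.0716).

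Snrpg stood at 774.7, 771.4 and 768.4 TPM in T1 of KOiMOS and 353.8, 386 and 417.1 in WTiMOS (log2 1.002, adjusted p = 8.24e-07), and at 841.7 ± 73.5 and 308 ± 56.9 TPM in T2 (1.46, adjusted p = 1.81e-05). Snrpe (0.78 in T1 and 0.97 in T2) and Snrpd1 (0.64 and 1.04) were higher as well, and Snrpa1 lower (-0.82 and -0.80). Snrpn, an Sm protein known mainly from brain, stood at 5.871, 5.144 and 6.887 TPM in T1 of KOiMOS and was listed at 0, 0.6731 and 0 in WTiMOS (log2 2.55, adjusted p = 1.89e-05), but it passed the filter through KOiMOS alone. In T2 it missed the filter of 1 TPM in 3 libraries and was not tested, at 5.281, 9.356 and 0.5962 TPM in KOiMOS and listed at 0 in all WTiMOS libraries. Srsf4 (-1.08 and -0.68), Srsf9 (-0.92 and -0.77), Srsf6 (-0.39 and -0.80) and Snw1 (-0.51 and -0.93) were lower in KOiMOS, and Srsf2 (0.70 and 0.50), Srsf3 (0.59 and 0.78), Sf3b3 (1.28 and 0.63) and Sf3b1 (0.76 and 0.63) higher. Hnrnpa1 in T1 (0.87, adjusted p = 0.026) lost its call without KOiMOS T1 replicate 1 (adjusted p = 0.0862), 2 (0.0872) or 3 (0.0792) or WTiMOS T1 replicate 1 (0.0535) or 2 (0.0583), and Srsf1 in T2 (0.48) without KOiMOS T2 replicate 1 or 2.

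Levels between ages and cell types, which also come from separate tables, are given without a test, as members for which all 6 libraries of 1 table lay above or below all 6 of the other. In MPP3, 22 of 54 members stood higher at 24 than at 3 months and 20 lower, against 17.6% and 42.4% of 11712 genes. Of 11 snRNP genes 8 stood higher and 2 lower, and of 21 hnRNP genes 7 and 9. Ptbp1 averaged 17.5 TPM at 24 months and 218 at 3 months, U2af2 15.7 and 214.4, and the U2 protein Sf3a2 3.84 and 314.8. Srsf9 averaged 221 and 17.7 TPM, Snrpe 1644 and 267.6, and Hnrnpa0 78.7 and 15.2. In MPP4, 0 members separated by age (all genes 1.37% higher and 0.773% lower). MPP4 stood above MPP3 for 18 members and below for 20 at 3 months (all genes 17.1% and 39.2%), and at 24 months for 2 and 0 (6.15% and 1.91%), namely Hnrnpk (577.3 against 377.4 TPM) and Sf3a3 (205.2 against 161.6 TPM). This rule pools T1 with T2, so it does not separate tables in which T1 and T2 lie far apart. Within T2 of MPP4 alone, Ptbp1 averaged 2.57 TPM at 3 months and 31.1 at 24 months, Snw1 22.6 and 195, and Hnrnpk 135.7 and 684.1. These 3 had the largest falls from T1 to T2 in 3-month MPP4, where 72.6% of all genes were called lower. How many of all genes differ so within T2 was not counted.

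Beyond the members, 84 other splicing genes in 8 lists were followed, 83 of them tested. In 3-month MPP4, 10 were higher and 66 lower with a median of -0.73 (after rescaling 31 and 21), beside 8.71% and 72.6% of all genes. In 24-month MPP4 46 were higher and 11 lower with a median of 0.31 (2 and 29), beside 58.2% and 7% of all genes. The LSm genes, whose ring on U6 resembles the Sm ring, went the way of most snRNP genes: 6 of 7 were higher and 1 lower at 3 months (median 0.51, after rescaling 7 and 0), and 0 higher and 6 lower at 24 months (median -0.25, after rescaling 0 and 7). Lsm5 averaged 286 ± 16.6 TPM in T1 and 651.4 ± 40.6 in T2 at 3 months (log2 1.19), and 405 and 283 at 24 months (-0.51). Lsm3 (0.84) and the tri-snRNP gene Snrnp27 (0.82) rose beside it at 3 months, and Lsm7 (-0.49) and Snrnp27 (-0.44) fell at 24 months. Over all tested genes with an RNA under 1 kb the median change was 0.273 at 3 months and -0.047 at 24 months. The length trend was not removed for these lists, so the part of RNA length was not tested. The lists of SR-related genes and kinases (0 higher and 11 lower of 12), snRNP assembly (0 and 11) and U1 and tri-snRNP genes (1 and 12 of 13) were mostly lower at 3 months, but after rescaling 5, 3 and 2 of their genes were higher and 4, 2 and 6 lower. At 24 months 6, 6 and 11 were higher and 0, 0 and 1 lower, and after rescaling 0, 0 and 1 higher and 4, 5 and 1 lower, so the direction of these lists depends on the scale. The SR protein kinase Srpk1 averaged 75.8 TPM in T1 and 19.5 in T2 at 3 months (-1.91), Snrnp40 196.7 and 53.5 (-1.86), and Sart1 17.1 and 4.30 (-1.78). At 24 months the U1 gene Snrnp70 averaged 19.0 and 41.2 TPM (1.09), with Casc3 (0.76) and Wdr77 (0.70) next.

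In 24-month MPP3, 24 of these 83 tested genes were higher and 11 lower, beside 30% and 12% of all genes (after rescaling 9 and 21, all genes 18.7% and 18.9%). Snrnp70 averaged 14.4 TPM in T1 and 34.6 in T2 (1.20), and Gemin4 (0.72) and Prpf6 (0.70) rose, while the SR protein kinases Clk1 (309.3 to 167.4 TPM, -0.89) and Clk4 (-0.74) and the Ptbp1 paralogue Ptbp2 (-0.63) fell. In 3-month MPP3, 5 were higher and 1 lower in WTiMOS, beside 8.39% and 5.96% of all genes (3 and 1 after rescaling, all genes 4.7% and 7.66%). Gemin4 (0.76), Wdr77 (0.40) and Srpk1 (0.39) were higher and Tra2a (-0.58) lower. In KOiMOS 16 were higher and 6 lower, beside 15.9% and 20.4% of all genes (27 and 3 after rescaling, all genes 19.8% and 17.7%). Rbm17 (0.81), Usp39 (0.52) and Raly (0.34) led on the higher side and Rbmx (-0.32), Mbnl2 (-0.23) and Srpk2 (-0.19) on the lower.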

How the data were processed

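Total RNA of sorted mouse bone marrow progenitors was made into cDNA with a low-input amplification kit, per the labels' protocols. The authors deposited TPM per gene in 5 tables of 6 libraries each. The submitters' processing notes name HISAT2, StringTie, featureCounts, DESeq2 and build mm10, with no version or role. How reads shared with near-identical copies (several members, such as Hnrnpa1, Snrpe and Snrpg, have processed pseudogenes) were assigned is not stated by the labels or notes, so levels of such genes are uncertain.

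TPM + 1 was put on the log2 scale. Genes with at least 1 TPM in 3 libraries of a comparison were tested with limma 3.58.1 in R 4.3.3 (eBayes with trend and robust), using the libraries of the groups compared, with Benjamini-Hochberg adjustment over all tested genes. There were 12 comparisons: T2 against T1 in 5 tables, KOiMOS against WTiMOS in T1 and in T2, and 5 differences of the T1 to T2 change. Ages and cell types were compared between tables as levels, without a test. The code was tested on simulated data. Depth is unknown, so no counting intervals are given, and 3 libraries a group limit the precision. Alternatives were median-ratio rescaling, a pseudocount of 0.1, no filter, 1 fit of all libraries, the replicate number as a block, removal of a trend on RNA length and GC content (GENCODE M21, 95.7% of genes matched) and each library left out in turn.

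The members and lists were chosen with earlier results of these data known. The text names 13 fixed members (Srsf1, Srsf2, Srsf3, Srsf7, Sf3b1, U2af1, U2af2, Ptbp1, Hnrnpa1, Hnrnpa2b1, Hnrnpk, Snw1 and Snrpd1), and by size of change up to 6 called members each way whose libraries do not overlap, up to 4 members by adjusted p for differences of changes, and up to 3 other splicing genes each way. Members named beyond this, such as Snrpb, Snrpc and Hnrnpa0 in MPP4, were named after their values were seen. Promoters of the 47 members matched by symbol are from the RefSeq table.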

Additional observations from a re-analysis of the deposited data

Results flagged for a closer look

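For 20 results the change from T1 to T2 differed between 2 tables when the difference itself was tested with limma (adjusted p under 0.05), and up to 4 members with the smallest adjusted p were taken per pair of tables. Between KOiMOS and WTiMOS 3-month MPP3 the log2 changes differed by -0.317 for Hnrnpk (-0.054 against 0.264), -0.424 for Snw1 (-0.145 against 0.279), -0.608 for Srsf5 (-0.544 against 0.064) and -0.41 for Srsf6 (-0.148 against 0.262). Between 24- and 3-month MPP3 they differed by 0.514 for Hnrnpm (0.52 against 0.006), 0.744 for Hnrnpr (0.948 against 0.203), 0.782 for Ptbp1 (0.871 against 0.09) and 0.775 for Snrpd3 (0.78 against 0.005). Between 24- and 3-month MPP4 they differed by 2.36 for Hnrnpa2b1 (0.34 against -2.02), 4.691 for Ptbp1 (1.466 against -3.225), 3.677 for Snw1 (0.797 against -2.879) and 2.542 for Srsf9 (0.744 against -1.798), each with opposite signs at the 2 ages on the TPM as deposited. On rescaled libraries the 24-month change of Hnrnpa2b1 was -0.107, so its change was then negative at both ages.

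Between MPP4 and MPP3 at 3 months the differences were -1.97 for Hnrnpa2b1 (-2.02 against -0.05), -2.516 for Hnrnpk (-2.253 against 0.264), -3.315 for Ptbp1 (-3.225 against 0.09) and -3.158 for Snw1 (-2.879 against 0.279). At 24 months they were 0.558 for Sf3b1 (0.495 against -0.063), -0.489 for Sf3b5 (-0.212 against 0.276), -0.931 for Snrpd3 (-0.151 against 0.78) and -0.714 for Snrpe (-0.464 against 0.251). No group had enough libraries for a test of single libraries that stand apart.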

How the results depend on the processing

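Limits: with 3 libraries a group and unknown depth, small changes and genes near 1 TPM are not resolved, and TPM cannot tell a change of 1 gene from a change of the rest of the library. All reversals came from rescaling or from removing the trend on length and GC content. In 3-month MPP4, rescaling turned the sign for Srsf1 (0.411), Srsf2 (0.417), Srsf3 (0.441), Srsf7 (0.238), U2af1 (0.715) and U2af2 (0.183), and removing the length and GC trend did so for Srsf1 (0.163), Srsf2 (0.399), Srsf3 (0.3) and U2af2 (0.452). In 24-month MPP4, rescaling turned Hnrnpa1 (-0.143), Hnrnpa2b1 (-0.107), Srsf2 (-0.165), Srsf3 (-0.32) and U2af1 (-0.409), and the trend removal Srsf2 (-0.053) and Srsf3 (-0.289). Snrpa1 in 3-month MPP4, named beside these, turned on rescaling (0.399). Among the changes checked for members named by the rule, no other called change turned its sign in any alternative run. For the differences of changes, only the up to 4 members taken by adjusted p were checked, and the other fixed members were not. In the 24- against 3-month MPP4 difference, 9 of 10 SR genes were called higher as reported, and 2 higher and 3 lower after rescaling. Counts of called members that moved by over 1.5 times were 1 in WTiMOS MPP3 at 3 months in 1 fit of all libraries (2 as reported), 15 for the KOiMOS to WTiMOS difference on rescaled libraries (9), 9 for the age difference in MPP3 both on rescaled libraries and with no filter (14), and 15 for MPP4 against MPP3 at 24 months both on rescaled libraries and with the trend removed (9). The cause was not tested.

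Leaving out each library in turn gave 11 to 20 calls in KOiMOS MPP3, 1 to 11 in 3-month and 14 to 24 in 24-month WTiMOS MPP3, 51 to 52 and 30 to 36 in 3- and 24-month MPP4, and 40 to 48 and 37 to 44 for KOiMOS against WTiMOS in T1 and T2. For the differences of changes it gave 6 to 15 (KOiMOS to WTiMOS), 7 to 14 and 49 to 52 (age, MPP3 and MPP4), and 44 to 49 and 6 to 18 (MPP4 to MPP3, 3 and 24 months). No pairing by replicate number was detected. Of 15 same-numbered T1 and T2 pairs 1 correlated above 0.1 (r from -0.197 to 0.127) and 4 correlated best with their own number. These correlations are of values centred within groups of 3 libraries, so they cannot tell whether same-numbered libraries share an animal. With the replicate number as a block the counts were 14, 3, 22, 51 and 33 in the 5 tables, 45 and 42 for KOiMOS against WTiMOS (a block over both tables, chosen after seeing the data), and 9, 11, 51, 46 and 7 for the differences of changes.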
